A study of Rattus norvegicus with 10 samples.

Results

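Cultured myoblasts taken from rats after 3 days of hindlimb suspension (HS3) were compared with those of unsuspended rats (Control) by RNA sequencing. The comparison was defined by the sample labels, as the 2 HS3 libraries against the 2 Control libraries, which are 4 of the 10 libraries of the series. In the other 6 libraries suspension lasted 1, 7 or 14 days (HS1, HS7 and HS14), with 2 libraries each. By the study's methods all rats were 3-month-old male Wistar animals, the Control rats were kept in vivarium cages, and no allele or agent is named for either group. Soleus muscles of both hindlimbs were digested with collagenase, the cells were plated, fibro-adipogenic progenitors (FAPs) were removed by their faster attachment to plastic, and the remaining cells were grown for 1 further day on Geltrex in serum-rich growth medium. The RNA is therefore that of cells which had left the unloaded muscle several days before lysis, and it says nothing directly of the muscle fibres. No source used here tells if both libraries of a group had different rats or cultures behind them, so that the p-values measure the spread between these libraries, which may be technical.

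Hindlimb suspension lifts the hind feet from the floor, so that the soleus, a slow postural muscle, no longer bears weight and atrophies. Its satellite cells are the muscle stem cells; in culture they proliferate as myoblasts, and on leaving the cell cycle they switch on the transcription factor myogenin, fuse through Myomaker and Myomixer, and begin to build sarcomeres. Muscle also holds FAPs, endothelial cells, pericytes, glia and macrophages, which secrete much of the extracellular matrix and the signals around satellite cells and can be carried into a primary culture.

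The total counts were 25142964 and 26233681 in Control and 20200972 and 26007203 in HS3. Of the other groups' libraries, the shallowest held 22304805 counts and the deepest 28175200. Expression is given in CPM, a gene's count as a share of its library's total after correction by TMM factors from all 10 libraries. The smallest level taken as detectable, 3 counts, lay at 0.114 to 0.152 CPM in these 4 libraries, and it covers counting error only. Beyond counting error, the 2 libraries of a group varied with a coefficient of 4.33% in Control and 8.97% in HS3. On the first principal component, which held 42.3% of the variance over the 10 libraries, the HS3 libraries lay at -34.9 and -37.4 and the Control libraries at -6.22 and -7.19. Symbols came only from the study's supplementary list of genes it had called in at least 1 comparison, which names 770 of the 32622 Ensembl genes. The defining satellite cell genes *Pax7*, *Myf5* and *Myod1* have no symbol there and were not analysed here, while *Myog*, *Mymk* and *Mymx* were detected in every library.

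A Y-linked gene differed between the groups. *Usp9y*, a ubiquitin protease gene which RefSeq places on the Y chromosome and which was singled out after its values were seen, stood at 1.74 and 1.82 CPM in Control and 6.71 and 6.76 CPM in HS3. The log2 fold change was 1.91 ± 0.23 (SE, edgeR adjusted p = 5.20e-05). In the other groups it stood at 0 and 0.0871 CPM in HS1, 1.78 and 1.11 CPM in HS7 and 0.0691 and 0.0842 CPM in HS14. The levels of HS3 thus lay above those of every other group, and those of HS1 and HS14 at or under the detection floor, although the methods name male rats alone. Its X-linked relative *Usp9x* is similar in sequence, so its count is uncertain, and the part of cell or animal composition in the results that follow was not tested.

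Over the 13133 genes tested, more rose than fell. A differentially expressed gene (DEG) had to pass 2 limits, an adjusted p of 0.01 in edgeR's quasi-likelihood test and a log2 fold change of 1.5 up or down. Together 148 genes (1.13%) did. There were 102 upregulated DEGs, 0.777% of the genes tested, and 46 downregulated DEGs, 0.350%. By adjusted p alone, 919 genes (7.00%) were higher in HS3 and 592 (4.51%) lower. The median log2 fold change over all genes tested was -0.0079. The libraries of both groups did not overlap for all 148 DEGs, against 60.4% of all genes tested. The upregulated DEGs had a median log2 fold change of 1.83 and the downregulated DEGs one of -1.99. A symbol was known for 86 of the upregulated and 38 of the downregulated DEGs.

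**Figure D1:**
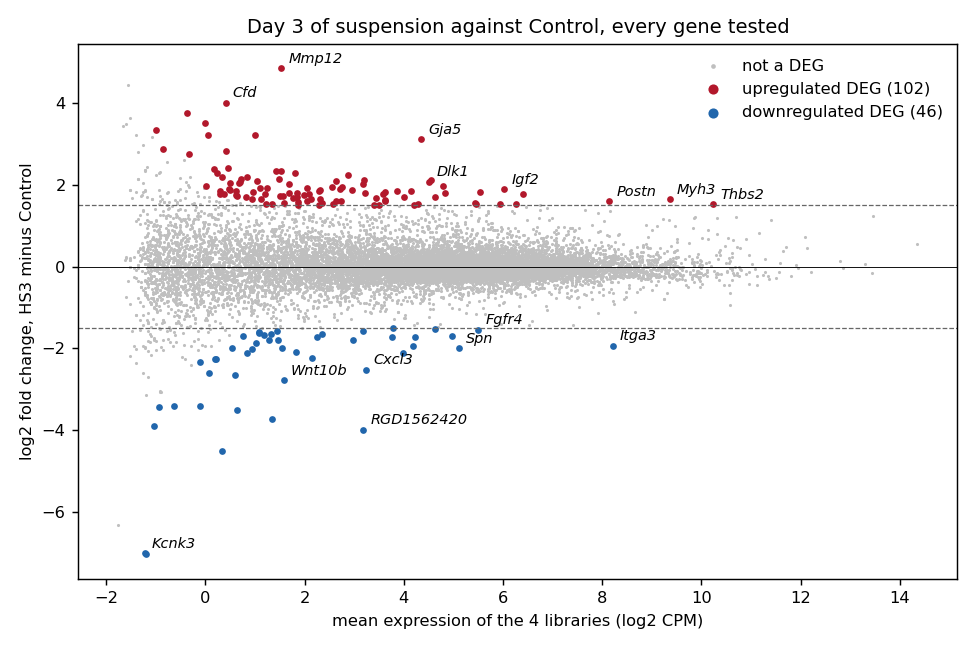
Mean expression of the 4 libraries in log2 CPM (x axis) against the log2 fold change of HS3 over Control (y axis) for the 13133 genes tested, with 102 upregulated DEGs in red and 46 downregulated DEGs in blue. Dashed lines mark a log2 fold change of 1.5 in either direction; *Thbs2*, *Myh3* and *Postn* are among the DEGs of high expression, and the position of *Kcnk3* depends on edgeR's prior count because both HS3 libraries hold no read of it.

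The genes with a symbol were called by the study on these same libraries, so a list made of them is not independent evidence of its direction. As their background, of the 744 tested genes with a symbol 373 (50.1%) passed the adjusted p, 309 (41.5%) upward and 64 (8.60%) downward, the median log2 fold change being 0.62, and 11.6% and 5.11% were upregulated and downregulated DEGs. The counts of each list below are to be set beside those shares and the shares over all genes. Near the 41.5% that rose lay the matrix enzyme (13 of 27), Wnt (8 of 17), growth factor (10 of 20) and immune (17 of 34) lists. Their upward counts are therefore not read as results about those lists. List genes that have no symbol or lay under the expression filter were not tested, which left 47 of 63 genes of the sarcomere list, 22 of 30 of the excitation list, 25 of 32 of the myogenic list and 14 of 19 of the metabolism list. Of the matrix, signal, immune and epithelial lists at most 3 genes each were left out.

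Genes of the contractile apparatus were higher in HS3. Of 47 tested members of the sarcomere list, 40 rose, 1 fell and 6 did not pass, the median log2 fold change being 1.22, and 10 of those that rose were DEGs. The summed level of the list was 2248 and 2339 CPM in Control and 5083 and 5292 CPM in HS3. With all 10 libraries in one fit, which shares 1 estimate of the spread among all groups, 18 members rose in place of 40. In that fit the HS7 libraries also enter, where the summed level was 13853 and 8050.3 CPM, and their part in the lost calls was not tested. In bulk RNA a larger share of cells that differentiate and more RNA of these genes per cell cannot be told apart.

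*Myh3*, the embryonic myosin heavy chain that is made when myoblasts first form fibres (ENSRNOG00000046276), stood at 309 and 336 CPM in Control and 979 and 1046 CPM in HS3. Both HS3 libraries lay above both Control libraries, and the log2 fold change was 1.65 ± 0.07 (SE, edgeR adjusted p = 8.67e-09), although the call was lost when the 10 libraries were fitted together (edgeR adjusted p = 0.0122). *Myom2*, an M-band protein that links thick filaments, stood at 6.88 and 8.49 CPM in Control and 23.9 and 26.2 CPM in HS3, a log2 fold change of 1.699 ± 0.14 (SE, edgeR adjusted p = 1.95e-06). Its call too was lost in the joint fit of 10 libraries (edgeR adjusted p = 0.0272). *Tnnc2*, the calcium-binding troponin of fast fibres, stood at 23.8 and 21.8 CPM in Control and 60.5 and 71.4 CPM in HS3 and rose by a log2 fold change of 1.53 ± 0.10 (SE, edgeR adjusted p = 3.78e-07). *Trim72*, or MG53, which seals tears in the muscle membrane, stood at 6.40 and 5.84 CPM in Control and 18.6 and 19.4 CPM in HS3 and rose by a log2 fold change of 1.63 ± 0.14 (SE, edgeR adjusted p = 3.22e-06). *Trim54*, a ring-finger protein of the sarcomere and microtubules, stood at 2.13 and 2.20 CPM in Control and 7.27 and 8.59 CPM in HS3 and rose by a log2 fold change of 1.87 ± 0.22 (SE, edgeR adjusted p = 3.81e-05). For all of these genes both HS3 libraries lay above both Control libraries. *Actn3*, the Z-disc crosslinker of fast fibres, reached a log2 fold change of 1.54 (edgeR adjusted p = 1.44e-06), and the sarcomeric actins *Acta1* and *Actc1* rose by a log2 fold change of 1.02 (edgeR adjusted p = 2.10e-07) and 0.99 (edgeR adjusted p = 2.31e-07).

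The members that did not follow were few. *Myh7*, the slow myosin heavy chain typical of the soleus, stood at 3.28 and 3.34 CPM in Control and 5.69 and 5.37 CPM in HS3, a log2 fold change of 0.73 (edgeR adjusted p = 0.0262) that did not pass. *Nexn*, a thin-filament protein, stood at 64.6 and 55.6 CPM in Control and 80.1 and 75.3 CPM in HS3, a log2 fold change of 0.36 (edgeR adjusted p = 0.0106), just outside the threshold. The small heat shock protein gene *Hspb7* was the member that fell, from 55.5 and 56.9 CPM in Control to 41.5 and 37.1 CPM in HS3 (edgeR adjusted p = 0.00103).

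Genes of excitation, calcium release and the neuromuscular junction were also higher: of 22 tested, 17 rose and 1 fell, and the median log2 fold change was 1.24, and 9 rose with all 10 libraries in one fit. *Stac3*, which holds the voltage sensor and the calcium release channel together, stood at 3.60 and 3.11 CPM in Control and 9.76 and 10.7 CPM in HS3 and rose by a log2 fold change of 1.601 ± 0.18 (SE, edgeR adjusted p = 3.81e-05). *Ryr1*, the calcium release channel itself, rose by a log2 fold change of 1.48 (edgeR adjusted p = 5.21e-07), and *Cacna1s*, its voltage sensor, by 1.15 (edgeR adjusted p = 1.09e-05). *Kcnj2*, the inward rectifier potassium channel whose current precedes myoblast fusion, stood at 1.03 and 1.06 CPM in Control and 3.15 and 3.50 CPM in HS3 and rose by a log2 fold change of 1.66 ± 0.31 (SE, edgeR adjusted p = 0.00199). Of the junction genes, *Prima1*, the membrane anchor of acetylcholinesterase, stood at 0.712 and 1.37 CPM in Control and 4.93 and 4.37 CPM in HS3. It rose by a log2 fold change of 2.14 ± 0.33 (SE, edgeR adjusted p = 3.92e-04). The enzyme itself, *Ache*, stood at 0.474 and 0.417 CPM in Control and 2.03 and 2.07 CPM in HS3 and rose by a log2 fold change of 2.18 (edgeR adjusted p = 0.00269). *Chrnd*, a subunit of the acetylcholine receptor, rose by a log2 fold change of 1.30 (edgeR adjusted p = 1.89e-06). The calcium pump gene *Atp2a3* was the member that fell, by a log2 fold change of -1.20 (edgeR adjusted p = 0.00198), and the potassium channel gene *Kcnj12* stood at 5.34 and 6.598 CPM in Control and 7.01 and 5.37 CPM in HS3, where the groups overlapped.

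Among regulators of myogenesis and cell fusion, 14 of 25 rose and 1 fell, and the median log2 fold change was 0.64. In the joint fit of 10 libraries 12 rose. *Myog*, the differentiation factor myogenin, stood at 233 and 243 CPM in Control and 426 and 387 CPM in HS3, a log2 fold change of 0.77 ± 0.07 (SE, edgeR adjusted p = 4.39e-06). *Mymk*, the fusion protein Myomaker, stood at 72.8 and 75.2 CPM in Control and 126 and 131 CPM in HS3, a log2 fold change of 0.79 ± 0.07 (SE, edgeR adjusted p = 4.83e-06). Its call was lost in the joint fit of 10 libraries (edgeR adjusted p = 0.0331). Its partner *Mymx*, Myomixer, stood at 7.79 and 9.03 CPM in Control and 15.5 and 17.8 CPM in HS3, a log2 fold change of 0.98 ± 0.14 (SE, edgeR adjusted p = 3.09e-04). These 3 genes rose by less than the DEG threshold, and their groups did not overlap. *Mustn1*, a small nuclear protein of regenerating muscle, stood at 5.93 and 5.01 CPM in Control and 17.2 and 20.4 CPM in HS3 and rose by a log2 fold change of 1.78 ± 0.16 (SE, edgeR adjusted p = 3.69e-06). *Asb2*, a ubiquitin ligase subunit of differentiating myoblasts, stood at 1.30 and 0.683 CPM in Control and 3.46 and 4.13 CPM in HS3 and rose by a log2 fold change of 1.93 ± 0.35 (SE, edgeR adjusted p = 0.00143).

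The member that fell was *Fgfr4*, a fibroblast growth factor receptor of satellite cells, at 66.6 and 68.5 CPM in Control and 21.3 and 25.04 CPM in HS3, a log2 fold change of -1.55 ± 0.10 (SE, edgeR adjusted p = 2.26e-07). The HS3 libraries lay well below both Control libraries, and *Fgfr4* was the only downregulated member of this list. *Notch1*, a receptor of the pathway that keeps satellite cells undifferentiated, stood at 7.51 and 6.52 CPM in Control and 7.42 and 9.86 CPM in HS3, a log2 fold change of 0.30 (edgeR adjusted p = 0.274). *Notch3* stood at 29.6 and 33.3 CPM in Control and 29.0 and 27.4 CPM in HS3, a log2 fold change of -0.17 (edgeR adjusted p = 0.299), and the Notch target *Heyl* at 51.2 and 47.7 CPM in Control and 48.4 and 52.7 CPM in HS3 (edgeR adjusted p = 0.857). None of these 3 genes passed the test, and a p that misses the threshold does not show that they were unaltered.

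Genes of muscle energy metabolism had the highest median of the lists, 1.54, with 8 of 14 higher, 0 lower and 5 upregulated DEGs. Fitted jointly over the 10 libraries, 6 were higher. *Pygm*, the muscle glycogen phosphorylase, stood at 7.51 and 8.23 CPM in Control and 26.7 and 29.8 CPM in HS3 and rose by a log2 fold change of 1.84 ± 0.13 (SE, edgeR adjusted p = 4.98e-07). *Mb*, myoglobin, stood at 3.24 and 2.01 CPM in Control and 11.1 and 13.6 CPM in HS3 and rose by a log2 fold change of 2.24 ± 0.22 (SE, edgeR adjusted p = 1.04e-05). *Cox8b*, a cytochrome oxidase subunit of muscle, stood at 0.712 and 1.06 CPM in Control and 3.15 and 3.66 CPM in HS3 and rose by a log2 fold change of 1.93 (edgeR adjusted p = 0.00118). *Eef1a2*, the elongation factor form that replaces *Eef1a1* in mature muscle, stood at 1.82 and 1.44 CPM in Control and 4.93 and 6.36 CPM in HS3 and rose by a log2 fold change of 1.79 (edgeR adjusted p = 2.84e-04). The lactate transporter gene *Slc16a3* stood at 34.5 and 39.2 CPM in Control and 28.2 and 29.1 CPM in HS3, a log2 fold change of -0.37 (edgeR adjusted p = 0.0205) that did not pass.

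The muscle genes that rose together can be set beside the bases upstream of them. RefSeq promoters of assembly GRCr8 were matched by the Entrez gene identifiers of the study's list for 581 of the 770 named genes. On both strands, the 250 bases before the start were searched for CAGCTG, an E-box core bound by myogenic basic helix-loop-helix factors. They were also searched for CTA and TAG on either side of 4 free bases, called the MEF2 core here. This string only approximates the sites that MEF2 factors bind, and other spellings were not searched. CAGCTG was in 22 of the 63 matched promoters of muscle-list genes that rose (34.9%), in 19.3% of the 560 tested genes with a symbol and in 11.9% of the 27457 RefSeq promoters. The MEF2 core was in 9.52%, 2.50% and 3.43% of the same promoters. Over all DEGs the shares lay closer to those of the genes with a symbol, CAGCTG being in 21.9% of the 73 upregulated and 20.8% of the 24 downregulated promoters and the MEF2 core in 4.11% and 4.17%. The other motifs searched were the general E-box CANNTG, of which CAGCTG is 1 form, the MCAT motif CATTCC, the AP-1 motif TGANTCA, the TATA motif TATAAA and the CArG box. In the muscle genes that rose and in the tested genes with a symbol, the general E-box was in 81.0% and 62.3%, the MCAT motif in 15.9% and 13.2%, the AP-1 motif in 3.17% and 7.32%, the TATA motif in 23.8% and 12.5% and the CArG box in 4.76% and 1.07%. Over all RefSeq promoters these shares were 65.2%, 11.8%, 6.36%, 13.1% and 1.5%. These matches are descriptions of letters and not of bound sites. Muscle-list genes that did not rise were not searched as a set, so whether the shares go with the rise was not tested. Of *Myog*, *Myh3*, *Mb*, *Tnnc2* and *Actn3*, also described above, all but *Actn3* held the general E-box in their promoters. None of these promoters held CAGCTG or the MEF2 core as spelled here, which does not show that they lack MEF2 sites. The 4 promoters shown were picked because they hold such letters. Promoters of 4 of the genes described above are shown for where such letters lie, in capitals, with the last base next to the start: *Pygm* (chr1:213119555-213119804, plus strand), *Stac3* (chr7:65228225-65228474, plus strand), *Mymx* (chr9:22894274-22894523, plus strand) and *Trim72* (chr1:192043970-192044219, plus strand). In *Pygm* CAGCTG began 181 and 32 bases before the start, in *Stac3* 21 and 9 bases before it, in *Mymx* 41 bases before it, and in *Trim72* the MEF2 core began 150 bases before it.
Pygm: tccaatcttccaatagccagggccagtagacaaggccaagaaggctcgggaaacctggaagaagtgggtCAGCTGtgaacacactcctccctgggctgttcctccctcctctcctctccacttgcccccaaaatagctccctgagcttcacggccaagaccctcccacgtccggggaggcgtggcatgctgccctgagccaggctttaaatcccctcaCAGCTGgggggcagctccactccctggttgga
Stac3: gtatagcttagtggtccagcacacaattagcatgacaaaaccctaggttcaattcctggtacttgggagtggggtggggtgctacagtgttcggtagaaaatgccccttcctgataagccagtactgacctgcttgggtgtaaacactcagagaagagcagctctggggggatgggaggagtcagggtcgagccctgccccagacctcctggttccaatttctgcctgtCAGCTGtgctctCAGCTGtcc
Mymx: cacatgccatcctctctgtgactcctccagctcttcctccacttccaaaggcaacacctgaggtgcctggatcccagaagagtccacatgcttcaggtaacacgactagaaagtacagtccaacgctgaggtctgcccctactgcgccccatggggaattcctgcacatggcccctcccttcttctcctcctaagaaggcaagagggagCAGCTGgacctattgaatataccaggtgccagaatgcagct
Trim72: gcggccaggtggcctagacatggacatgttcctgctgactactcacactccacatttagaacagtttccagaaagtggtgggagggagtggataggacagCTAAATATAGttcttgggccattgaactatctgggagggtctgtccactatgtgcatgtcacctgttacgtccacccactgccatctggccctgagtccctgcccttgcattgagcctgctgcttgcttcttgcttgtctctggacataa

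**Figure D2:**
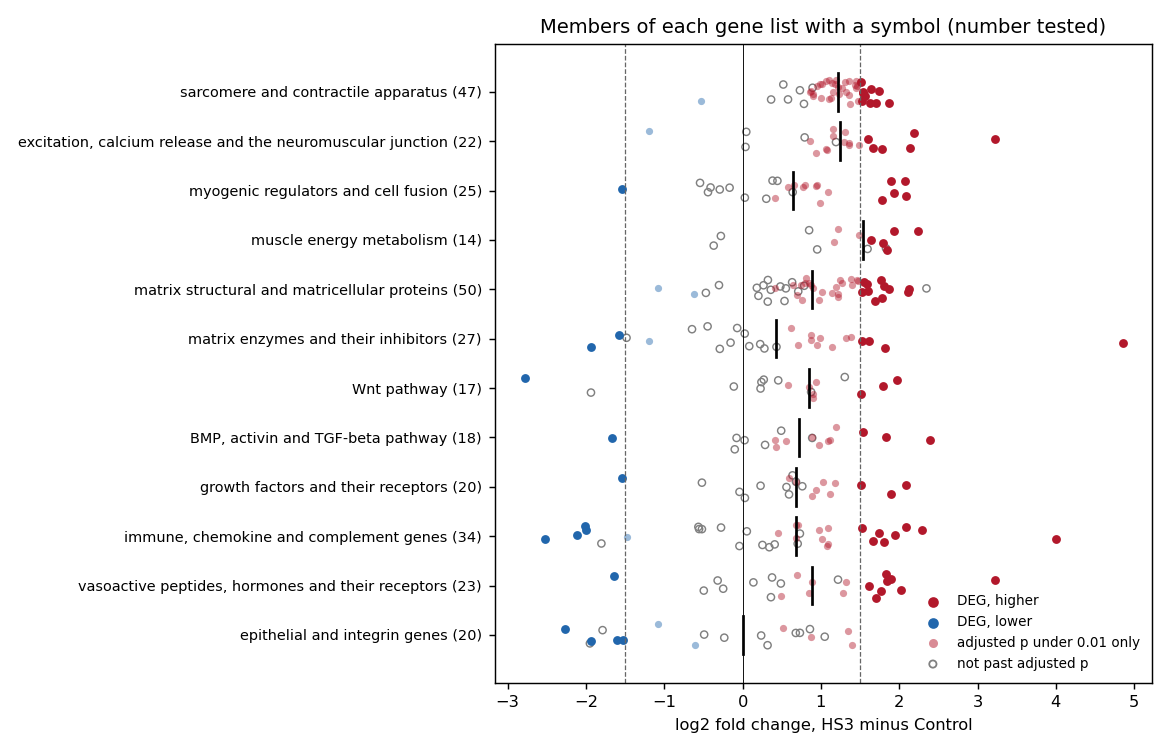
Log2 fold change of HS3 over Control (x axis) for each tested member of 12 gene lists (y axis, number tested in brackets), with DEGs as full circles, genes past the adjusted p alone as pale circles, genes that did not pass as open circles, and the list median as a black bar. The sarcomere list lies almost wholly to the right of 0 (46 of 47 members), and the epithelial and integrin list is split evenly (10 to either side).

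Extracellular matrix genes were higher in HS3. Of 50 structural and matricellular members, 33 rose, 2 fell and 15 did not pass, the median log2 fold change being 0.89. Their summed level was 15166 and 15950.3 CPM in Control and 31114 and 36585 CPM in HS3. *Thbs2*, thrombospondin 2, a matricellular protein (ENSRNOG00000010529), stood at 602 and 650.2 CPM in Control and 1796 and 1835 CPM in HS3, a log2 fold change of 1.53 ± 0.06 (SE, edgeR adjusted p = 8.67e-09). *Postn*, periostin, a matricellular protein that promotes collagen crosslinking, stood at 142 and 141 CPM in Control and 408 and 451 CPM in HS3, a log2 fold change of 1.59 ± 0.07 (SE, edgeR adjusted p = 1.09e-08). *Fbn2*, the fetal form of fibrillin in microfibrils, stood at 8.78 and 9.03 CPM in Control and 33.3 and 43.9 CPM in HS3, a log2 fold change of 2.11 ± 0.14 (SE, edgeR adjusted p = 3.40e-07). In each the HS3 libraries lay at several times the Control libraries, with no overlap. *Dpt*, dermatopontin, a small matrix protein of collagen assembly, stood at 3.52 and 3.49 CPM in Control and 14.4 and 16.3 CPM in HS3 and rose by a log2 fold change of 2.13 ± 0.16 (SE, edgeR adjusted p = 1.36e-06). *Svep1*, an adhesion protein with many complement-like repeats, stood at 37.2 and 40.2 CPM in Control and 133 and 133 CPM in HS3 and rose by a log2 fold change of 1.78 (edgeR adjusted p = 1.22e-08). *Ccn5*, a CCN family matricellular protein, stood at 13.8 and 11.8 CPM in Control and 44.4 and 45.4 CPM in HS3 and rose by a log2 fold change of 1.81 (edgeR adjusted p = 2.10e-07), and *Cthrc1*, a secreted collagen triple helix protein, stood at 3.40 and 3.41 CPM in Control and 13.7 and 11.4 CPM in HS3 and rose by a log2 fold change of 1.87 (edgeR adjusted p = 8.36e-06). *Col1a1*, the chain of type I collagen, rose by a log2 fold change of 1.25 (edgeR adjusted p = 8.73e-06), *Col6a1* of the pericellular collagen VI by 1.19 (edgeR adjusted p = 7.84e-07) and *Fbn1*, fibrillin 1, by 1.22 (edgeR adjusted p = 2.08e-08), all under the DEG threshold.

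Proteoglycans of the matrix list moved in both directions. *Bgn*, biglycan, rose by a log2 fold change of 1.14 (edgeR adjusted p = 5.99e-08), *Prelp* by 0.85 (edgeR adjusted p = 1.05e-06) and *Lum*, lumican, by 0.81 (edgeR adjusted p = 0.00298), and 2 fell. *Dcn*, decorin, which binds TGF-beta and collagen, stood at 165 and 159.8 CPM in Control and 80.2 and 74.9 CPM in HS3 (log2 fold change -1.07, edgeR adjusted p = 4.56e-07). *Prg4*, lubricin, stood at 169 and 175 CPM in Control and 125 and 101 CPM in HS3 (log2 fold change -0.62, edgeR adjusted p = 3.69e-04). The highest member that did not pass was *Col4a5*, a basement membrane collagen chain, at 42.7 and 39.1 CPM in Control and 34.7 and 32.0 CPM in HS3 (edgeR adjusted p = 0.0436).

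Markers of FAPs and adipocytes moved with the matrix. Of 16 such markers, 14 rose, 1 fell, which was *Dcn*, and 1 did not pass, *Pparg* (edgeR adjusted p = 0.0456), the median log2 fold change being 1.06. Their summed level was 7158 and 7626 CPM in Control and 15116 and 19010.4 CPM in HS3, most of which were counts of *Col1a1*. *Pdgfra*, the receptor that defines FAPs, stood at 147 and 149 CPM in Control and 304 and 297 CPM in HS3 and rose by a log2 fold change of 1.02 ± 0.06 (SE, edgeR adjusted p = 2.26e-07). The adipocyte genes *Adipoq*, adiponectin, and *Cfd*, adipsin, stood at 0.158 and 0.228 CPM in Control and 2.24 and 1.51 CPM in HS3 and at 0.237 and 0.0758 CPM in Control and 3.56 and 1.67 CPM in HS3, close to the floor in Control. The matrix list holds 6 of these markers (*Dcn*, *Lum*, *Dpt*, *Col1a1*, *Cilp* and *Smoc2*), and of its other 44 members 28 rose and 1 fell. The part of FAPs that escaped removal in the matrix results was not tested.

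Enzymes of the matrix and their inhibitors changed less uniformly: 13 of 27 rose and 3 fell, and the median log2 fold change was 0.43. *Mmp12*, the macrophage elastase, stood at 0.237 and 0.152 CPM in Control and 5.28 and 6.200 CPM in HS3, a log2 fold change of 4.85 ± 0.38 (SE, edgeR adjusted p = 1.42e-06). It was close to the floor in Control and clearly detected in both HS3 libraries. *Adamts9*, a protease of proteoglycans, stood at 29.7 and 34.1 CPM in Control and 91.2 and 93.0 CPM in HS3 and rose by a log2 fold change of 1.52 ± 0.09 (SE, edgeR adjusted p = 1.35e-07). *Aoc3*, a surface amine oxidase, stood at 5.85 and 5.27 CPM in Control and 18.9 and 20.4 CPM in HS3 and rose by a log2 fold change of 1.81 ± 0.14 (SE, edgeR adjusted p = 1.56e-06), and *F13a1*, the transglutaminase chain of factor XIII, stood at 6.01 and 6.37 CPM in Control and 20.8 and 17.2 CPM in HS3 and rose by a log2 fold change of 1.61 ± 0.15 (SE, edgeR adjusted p = 6.42e-06). Of the DEGs that fell, *Cst6*, cystatin E/M, an inhibitor of lysosomal proteases, stood at 29.0 and 27.9 CPM in Control and 8.43 and 6.598 CPM in HS3 (log2 fold change -1.94 ± 0.14 SE, edgeR adjusted p = 6.86e-07). *Mmp9*, gelatinase B, stood at 14.0 and 12.6 CPM in Control and 4.06 and 4.85 CPM in HS3 (log2 fold change -1.57 ± 0.17 SE, edgeR adjusted p = 2.06e-05). The heparan sulfate cleaving enzyme *Hpse* stood at 31.2 and 28.6 CPM in Control and 28.5 and 25.6 CPM in HS3 and did not pass (edgeR adjusted p = 0.351).

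Of 17 members of the Wnt pathway list, 8 rose and 1 fell, near the 41.5% and 8.60% of genes with a symbol. The median log2 fold change was 0.85, and the counts are not read as a result about the pathway. Among the ligands, *Wnt5a*, which acts largely without beta-catenin, stood at 95.7 and 92.0 CPM in Control and 167 and 172 CPM in HS3, a log2 fold change of 0.85 ± 0.07 (SE, edgeR adjusted p = 2.00e-06), under the DEG threshold. *Wnt10b*, a beta-catenin ligand that favours myogenic over adipogenic fate, stood at 4.27 and 5.57 CPM in Control and 0.711 and 0.715 CPM in HS3, a log2 fold change of -2.78 ± 0.31 (SE, edgeR adjusted p = 3.19e-05). *Wnt5a* and *Wnt10b* thus moved in opposite directions, with no overlap between the groups for either. The ligand gene *Wnt4* rose by a log2 fold change of 0.91 (edgeR adjusted p = 8.60e-06), and *Wnt11* did not pass (edgeR adjusted p = 0.813). Among inhibitors and receptors, *Nkd2*, which binds Dishevelled, stood at 9.65 and 13.2 CPM in Control and 39.2 and 51.2 CPM in HS3 and rose by a log2 fold change of 1.98 ± 0.16 (SE, edgeR adjusted p = 2.08e-06). *Apcdd1*, a membrane inhibitor, stood at 1.58 and 2.28 CPM in Control and 6.10 and 5.01 CPM in HS3 and rose by a log2 fold change of 1.51 (edgeR adjusted p = 0.00109), and *Lgr5*, a receptor of R-spondins, stood at 0.988 and 1.90 CPM in Control and 4.93 and 5.17 CPM in HS3 and rose by a log2 fold change of 1.79 (edgeR adjusted p = 8.85e-04). *Ror2*, a receptor of WNT5A, rose by a log2 fold change of 0.90 (edgeR adjusted p = 5.86e-05). The secreted inhibitor *Dkk3* rose by a log2 fold change of 0.94 (edgeR adjusted p = 5.55e-06), while *Sfrp1* (edgeR adjusted p = 0.0406), *Wif1* (edgeR adjusted p = 0.484) and *Dkk2* (edgeR adjusted p = 0.497), also secreted inhibitors, did not pass. *Dact1*, another Dishevelled partner, stood at 5.42 and 4.74 CPM in Control and 6.81 and 7.15 CPM in HS3 and did not pass (edgeR adjusted p = 0.101).

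In the BMP, activin and TGF-beta list, 11 of 18 members rose and 1 fell, and the median log2 fold change was 0.72. With all 10 libraries in one fit 9 rose, nearer the 41.5% of genes with a symbol. Of the ligands, *Bmp6* stood at 2.93 and 3.56 CPM in Control and 1.02 and 1.03 CPM in HS3, a log2 fold change of -1.66 ± 0.32 (SE, edgeR adjusted p = 0.00236), which was lost when 1 library was left out (largest edgeR adjusted p = 0.0145). *Tgfb2* stood at 191 and 191 CPM in Control and 222 and 168 CPM in HS3, where the Control libraries lay between the HS3 libraries. Other ligand genes rose, *Inhbb* by a log2 fold change of 2.39 (edgeR adjusted p = 0.00354) and *Gdf10* by 1.84 (edgeR adjusted p = 0.00357). Their mean levels in Control were low, at 0.351 and 0.857 CPM. *Bmp2*, *Inha* and *Gdnf* did not pass (edgeR adjusted p = 0.0745, 0.351 and 0.145). The antagonist *Grem1*, gremlin 1, rose by a log2 fold change of 0.43 (edgeR adjusted p = 2.39e-04), and the type I receptor *Acvrl1* by 1.11 (edgeR adjusted p = 3.75e-06). Of the targets, *Msx2*, a homeobox gene induced by BMPs, stood at 3.32 and 2.88 CPM in Control and 9.15 and 8.94 CPM in HS3 and rose by a log2 fold change of 1.54 ± 0.19 (SE, edgeR adjusted p = 7.81e-05). *Smad6*, the inhibitory SMAD, rose by a log2 fold change of 0.88 (edgeR adjusted p = 7.55e-05) and *Msx1* by 0.97 (edgeR adjusted p = 3.31e-04).

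Among growth factors and their receptors, 10 of 20 rose and 1, *Fgfr4*, fell. *Igf2*, insulin-like growth factor II, an autocrine factor of differentiating myoblasts, stood at 28.3 and 27.8 CPM in Control and 107 and 102 CPM in HS3, a log2 fold change of 1.89 ± 0.08 (SE, edgeR adjusted p = 1.09e-08). *Dlk1*, an imprinted transmembrane protein of the Notch ligand family that restrains adipocyte formation, stood at 9.41 and 8.42 CPM in Control and 33.6 and 41.9 CPM in HS3, a log2 fold change of 2.08 ± 0.13 (SE, edgeR adjusted p = 2.39e-07). *Igf2* and *Dlk1* were each well above either Control library in both HS3 libraries. *Kdr*, the main receptor of VEGF-A, stood at 1.74 and 3.41 CPM in Control and 8.03 and 6.80 CPM in HS3 and rose by a log2 fold change of 1.51 (edgeR adjusted p = 0.00147). *Vegfd*, a lymphatic growth factor, rose by a log2 fold change of 1.18 (edgeR adjusted p = 2.26e-07), and *Hgf*, the hepatocyte growth factor that wakes satellite cells, by 0.89 (edgeR adjusted p = 3.28e-04). *Fgf7* stood at 65.1 and 65.3 CPM in Control and 65.3 and 62.2 CPM in HS3, where the groups overlapped.

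Immune, chemokine and complement genes were split: 17 of 34 rose, 5 fell and 12 did not pass. Of the DEGs, 8 were higher and 4 lower. *Ptx3*, a soluble pattern recognition protein, stood at 3.64 and 4.85 CPM in Control and 15.5 and 14.3 CPM in HS3 and rose by a log2 fold change of 1.80 ± 0.18 (SE, edgeR adjusted p = 8.52e-06). *Tril*, a co-receptor of Toll-like receptors, stood at 2.89 and 2.81 CPM in Control and 10.9 and 11.2 CPM in HS3 and rose by a log2 fold change of 1.95 ± 0.18 (SE, edgeR adjusted p = 6.04e-06). *Il1rn*, the natural antagonist of interleukin 1, stood at 39.6 and 40.2 CPM in Control and 103 and 127 CPM in HS3 and rose by a log2 fold change of 1.52 (edgeR adjusted p = 2.37e-07), and *Lyz2*, lysozyme of myeloid cells, stood at 1.26 and 1.14 CPM in Control and 4.47 and 7.31 CPM in HS3 and rose by a log2 fold change of 2.296 (edgeR adjusted p = 1.15e-04). *Rarres1*, a gene induced by retinoids, stood at 0.791 and 0.758 CPM in Control and 2.69 and 3.90 CPM in HS3 and rose by a log2 fold change of 2.09 (edgeR adjusted p = 8.76e-04). Lower were *Cxcl3*, a neutrophil chemokine, at 15.4 and 16.1 CPM in Control and 3.05 and 2.46 CPM in HS3 (log2 fold change -2.53 ± 0.18 SE, edgeR adjusted p = 5.21e-07), and *Spn*, the leukocyte sialoprotein CD43, at 56.4 and 53.7 CPM in Control and 12.6 and 15.0 CPM in HS3 (log2 fold change -1.99 ± 0.11 SE, edgeR adjusted p = 8.32e-08). *Cd80*, a costimulatory ligand, stood at 16.1 and 14.3 CPM in Control and 11.2 and 10.1 CPM in HS3 and did not pass (edgeR adjusted p = 0.018).

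Leukocyte markers did not move as one. Of 11 tested, 6 rose, 1 fell and 4 did not pass. Their summed level was 131 and 126 CPM in Control and 158 and 162 CPM in HS3, and the defining genes *Ptprc*, *Cd68*, *Csf1r* and *Adgre1* have no symbol and were not analysed here. The part of macrophages in *Mmp12*, *F13a1* and *Lyz2* was not tested.

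Vasoactive peptides, hormones and their receptors held 8 upregulated DEGs among 23 members, with 14 higher and 1 lower by adjusted p and a median log2 fold change of 0.89. The joint fit of 10 libraries called 13 higher. The peptide adrenomedullin, *Adm*, stood at 11.5 and 12.1 CPM in Control and 36.5 and 40.5 CPM in HS3 and rose by a log2 fold change of 1.701 (edgeR adjusted p = 3.19e-07). *Ramp3*, which turns the calcitonin receptor-like receptor into an adrenomedullin receptor, stood at 19.2 and 22.0 CPM in Control and 65.7 and 80.9 CPM in HS3 and rose by a log2 fold change of 1.83 ± 0.11 (SE, edgeR adjusted p = 2.03e-07). A ligand and its co-receptor thus rose in the same cultures. *Npr3*, the clearance receptor of natriuretic peptides, stood at 1.54 and 1.06 CPM in Control and 6.15 and 4.49 CPM in HS3 and rose by a log2 fold change of 2.02 ± 0.30 (SE, edgeR adjusted p = 2.93e-04). *Irag1*, a substrate of cGMP kinase that restrains calcium release, stood at 2.06 and 2.28 CPM in Control and 6.81 and 8.78 CPM in HS3 and rose by a log2 fold change of 1.84 ± 0.23 (SE, edgeR adjusted p = 6.40e-05). *Agtr1a*, the angiotensin receptor, stood at 1.03 and 1.06 CPM in Control and 3.76 and 3.42 CPM in HS3 and rose by a log2 fold change of 1.77 ± 0.31 (SE, edgeR adjusted p = 0.00118). The natriuretic peptide gene *Nppb* stood at 2.53 and 4.66 CPM in Control and 1.12 and 1.19 CPM in HS3, a log2 fold change of -1.64 (edgeR adjusted p = 0.00528), and lost its call when 1 library was left out (largest edgeR adjusted p = 0.116). *Ednrb*, the endothelin B receptor, stood at 22.7 and 20.1 CPM in Control and 19.6 and 15.0 CPM in HS3 and did not pass (edgeR adjusted p = 0.13).

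Some markers of vessels and nerve rose, and others did not pass. Of 7 tested endothelial markers 3 rose, *Kdr*, *Eng* and *Acvrl1*, while the defining genes *Cdh5* and *Vwf* lay at 0.237 and 0.152 CPM in Control and 0.610 and 0.636 CPM in HS3 and at 0.0791 and 0.455 CPM in Control and 0.508 and 0.318 CPM in HS3 and did not pass. *Flt4*, a receptor of lymphatic growth factors, stood at 6.92 and 6.598 CPM in Control and 4.47 and 4.97 CPM in HS3 and did not pass (edgeR adjusted p = 0.0666). *Rasip1*, also tested, averaged 1.19 CPM in Control and 0.221 CPM in HS3, a log2 fold change of -2.40 (edgeR adjusted p = 0.0163) that did not pass. The number of endothelial markers called lower was 1 in the joint fit of 10 libraries and 0 with DESeq2 on these 4 libraries. The 3 of 7 that rose lay near the 41.5% of genes with a symbol and are not read as a result about vessels. *Emcn* and *Esam* were under the expression filter. Of 5 tested pericyte and smooth muscle markers 2 rose, *Pdgfrb* by 1.12 (edgeR adjusted p = 1.86e-07) and *Lmod1* by 1.52 (edgeR adjusted p = 1.81e-05). *Ppp1r14a* (log2 fold change 0.90, edgeR adjusted p = 0.0147), *Myocd* (-0.55, edgeR adjusted p = 0.0382) and *Notch3* (-0.17, edgeR adjusted p = 0.299) did not pass. *Rgs5* was under the expression filter, at 0 and 0 CPM in the Control libraries and 0.152 and 0.0795 CPM in the HS3 libraries. The 2 of 5 also lay near the 41.5% and are not read as a result about pericytes. Of 5 Schwann and glial markers 3 rose, *S100b* by 1.25 (edgeR adjusted p = 5.11e-06), *Erbb3* by 0.94 (edgeR adjusted p = 1.15e-04) and *Gldn* by 0.99 (edgeR adjusted p = 1.79e-05). *Lgi4*, at 6.40 and 6.30 CPM in Control and 4.47 and 3.82 CPM in HS3 (edgeR adjusted p = 0.0399), did not pass. Neither did *Ngfr* (log2 fold change -0.21, edgeR adjusted p = 0.83). No gene of the proliferation list, such as *Mki67*, has a symbol, so that cell cycling was not analysed here.

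The epithelial and integrin list was the one list with more DEGs down than up, 4 against 0, and its median log2 fold change was 0.0019. By adjusted p, 6 of 20 members fell and 4 rose, and the number that fell was 3 with DESeq2 on these 4 libraries and 3 without the second Control library. *Itga3*, the integrin chain that binds laminin in the basement membrane (ENSRNOG00000004276), stood at 473 and 474 CPM in Control and 123 and 126 CPM in HS3, a log2 fold change of -1.93 ± 0.06 (SE, edgeR adjusted p = 2.11e-09). It had the smallest adjusted p of the downregulated genes named here, and the libraries of each group lay within a few CPM of each other. *Anxa3*, an annexin of membranes, stood at 37.7 and 36.0 CPM in Control and 13.2 and 12.5 CPM in HS3, a log2 fold change of -1.53 ± 0.11 (SE, edgeR adjusted p = 6.93e-07). *Celsr2*, a cadherin of planar cell polarity, stood at 3.40 and 2.65 CPM in Control and 1.32 and 0.715 CPM in HS3 and lost its call when 1 library was left out (largest edgeR adjusted p = 0.0338) and with DESeq2 (adjusted p = 0.0169). The collagen-binding integrin gene *Itga11* rose by a log2 fold change of 1.39 (edgeR adjusted p = 3.21e-06) and the annexin gene *Anxa8* by 1.35 (edgeR adjusted p = 1.44e-06). *Krt7*, a simple epithelial keratin, stood at 51.0 and 57.9 CPM in Control and 40.9 and 51.9 CPM in HS3, where the groups overlapped.

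The other named DEGs belonged to none of these lists. *Gja5*, connexin 40, a gap junction channel of arteries and the heart (ENSRNOG00000017484), stood at 4.03 and 4.55 CPM in Control and 35.7 and 39.2 CPM in HS3, a log2 fold change of 3.12 ± 0.13 (SE, edgeR adjusted p = 1.09e-08). *Piezo2*, a mechanically gated ion channel, stood at 3.44 and 3.91 CPM in Control and 15.2 and 14.9 CPM in HS3 and rose by a log2 fold change of 2.02 ± 0.16 (SE, edgeR adjusted p = 1.83e-06). *Slit3*, a secreted guidance protein, stood at 6.29 and 6.56 CPM in Control and 17.8 and 28.2 CPM in HS3 and rose by a log2 fold change of 1.84 ± 0.19 (SE, edgeR adjusted p = 2.03e-05). In all 3 the HS3 libraries lay above the Control libraries without overlap. Among the genes that fell, *Sim2*, a basic helix-loop-helix PAS factor that can repress *Myod1*, stood at 27.8 and 29.2 CPM in Control and 8.69 and 8.59 CPM in HS3 (log2 fold change -1.73 ± 0.12 SE, edgeR adjusted p = 5.30e-07). *Ccdc88b*, a microtubule-binding protein of immune cells, stood at 45.02 and 51.6 CPM in Control and 15.1 and 14.5 CPM in HS3 (log2 fold change -1.71 ± 0.11 SE, edgeR adjusted p = 2.37e-07), and *Epb41l4a*, a FERM domain protein, at 21.6 and 19.9 CPM in Control and 7.06 and 5.60 CPM in HS3 (log2 fold change -1.72, edgeR adjusted p = 3.57e-06). The uncharacterised genes *RGD1562420* and *LOC100360791* stood at 16.9 and 16.2 CPM in Control and 0.661 and 1.35 CPM in HS3 (log2 fold change -3.99 ± 0.24 SE, edgeR adjusted p = 1.45e-07) and at 25.7 and 25.4 CPM in Control and 5.64 and 6.16 CPM in HS3 (log2 fold change -2.11, edgeR adjusted p = 2.12e-07). *Kcnk3*, the potassium leak channel TASK-1, stood at 0.870 and 0.455 CPM in Control and had no read in either HS3 library. Against a floor of 3 counts per library it was at least 4.88-fold lower in HS3, and its call was lost without 1 library (largest edgeR adjusted p = 0.0102). *LOC100361898* stood at 0.712 and 0.834 CPM in Control and 0.102 and 0.0397 CPM in HS3, with 2 and 1 counts in HS3, and also lost its call (largest edgeR adjusted p = 0.0548).

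**Figure D3:**
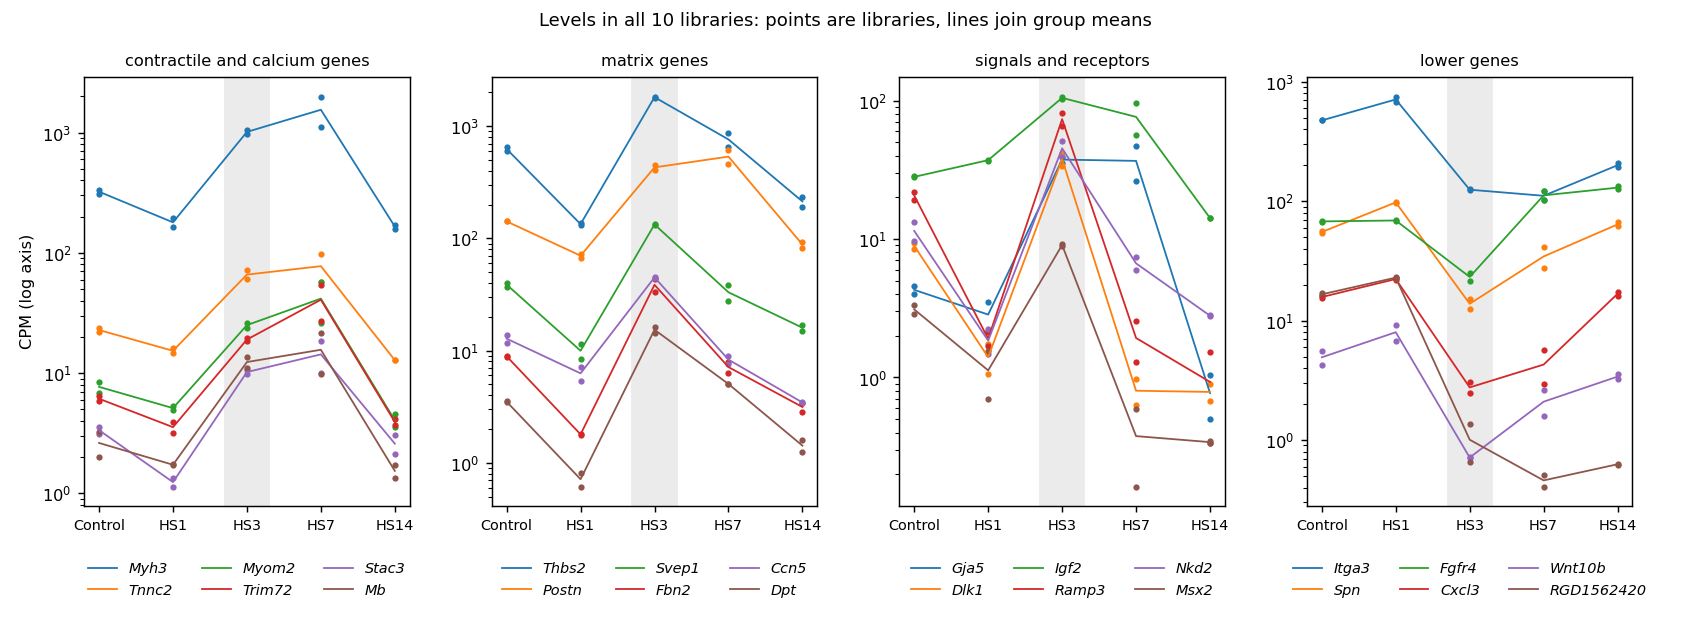
CPM on a log axis (y) in the 2 libraries of each group (x, points) with lines joining the group means, for contractile and calcium genes, matrix genes, signals and receptors, and genes lower in HS3, with HS3 shaded. *Dlk1* and *Ramp3* stand at 33.6 and 41.9 and 65.7 and 80.9 CPM in HS3, above every other library, while *Myh3* is higher still in HS7, at 1989 and 1106 CPM.

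Whether these levels were particular to the third day was tested directly against the neighbouring times, with all 10 libraries in one fit. Against HS1, 244 list members were higher in HS3 and 29 lower, where 17.1% and 15.0% of all genes tested, and 60.6% and 12.1% of those with a symbol, were called in the same directions. Against HS7, 145 were higher and 100 lower, where the shares were 15.4% and 14.3% of all genes and 45.8% and 28.9% of those with a symbol. The lists held 332 genes tested against Control, which need not be the number in the joint fit. The counts against HS7 thus lay near the shares of genes with a symbol and are not read as particular to the lists.

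The sarcomere and matrix lists can be set side by side here. Of 48 sarcomere members, 36 were higher and 1 lower in HS3 than in HS1, with a median log2 difference of 1.77. Against HS7, 18 were lower and 2 higher, with a median of -0.91. The HS7 libraries differed from each other, the summed level being 13853 CPM in replicate 1 and 8050.3 CPM in replicate 2. Both lay above the 5083 and 5292 CPM of HS3. *Myog* stood at 116 and 107 CPM in HS1 and 883 and 669.6 CPM in HS7, and was higher in HS3 than in HS1 by 1.87 ± 0.13 (SE, edgeR adjusted p = 1.30e-06) and lower than in HS7, by a log2 difference of -0.93 ± 0.13 (SE, edgeR adjusted p = 1.90e-04). Of 50 matrix structural members, 45 were higher and 1 lower than in HS1, and 27 were higher and 11 lower than in HS7, medians being 2.85 and 1.09. The matrix counts against HS7 lay near the 45.8% and 28.9% of genes with a symbol and are not read as particular to the matrix. *Thbs2* stood at 132 and 136 CPM in HS1 and 654 and 870.5 CPM in HS7, below both HS3 libraries, with log2 differences of 3.76 ± 0.15 (SE, edgeR adjusted p = 5.70e-08) and 1.25 ± 0.13 (SE, edgeR adjusted p = 7.35e-05).

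**Figure D4:**
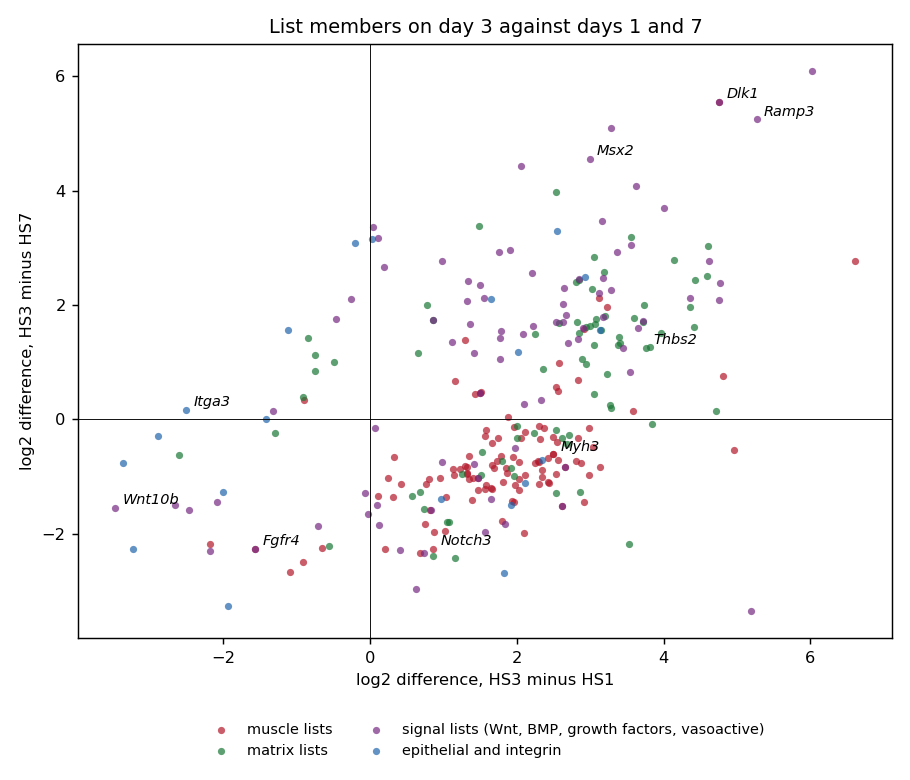
Log2 difference of HS3 from HS1 (x axis) against that of HS3 from HS7 (y axis) for members of the muscle, matrix, signal, and epithelial and integrin lists, each point 1 gene, from one fit of all 10 libraries. Most muscle genes lie to the right and below 0, while *Dlk1* (4.76 and 5.55) and *Ramp3* (5.27 and 5.25) lie high on both axes; both axes share the HS3 libraries.

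Several signalling genes were higher in HS3 than at either neighbouring time. *Dlk1* stood at 1.06 and 1.74 CPM in HS1 and 0.973 and 0.632 CPM in HS7, with log2 differences of 4.76 ± 0.22 (SE, edgeR adjusted p = 4.25e-14) and 5.55 ± 0.23 (SE, edgeR adjusted p = 2.07e-14). *Ramp3* stood at 1.68 and 2.13 CPM in HS1 and 2.55 and 1.30 CPM in HS7, and *Msx2* at 1.55 and 0.697 and 0.162 and 0.592 CPM. All of these libraries lay below both HS3 libraries and both Control libraries. *Fgfr4* stood at 69.0 and 68.5 CPM in HS1 and 103 and 120.4 CPM in HS7 and was lower in HS3 than in either, by log2 differences of -1.56 ± 0.09 (SE, edgeR adjusted p = 2.46e-12) and -2.26 ± 0.09 (SE, edgeR adjusted p = 9.06e-15). *Sim2* stood at 45.03 and 40.9 CPM in HS1 and 31.7 and 34.3 CPM in HS7 and was likewise lower in HS3. *Itga3* did not differ past the threshold from HS7, at 101 and 120.3 CPM (log2 difference 0.17 ± 0.08 SE, edgeR adjusted p = 0.0844), and *Gja5* did not either, at 47.2 and 26.1 CPM (log2 difference 0.03 ± 0.27 SE, edgeR adjusted p = 0.942).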

How the data were processed

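RNA was sequenced from 10 libraries of soleus-derived myoblasts, of which the 2 HS3 and 2 Control libraries were compared. The authors deposited raw counts per Ensembl gene without normalization. According to the methods, stranded mRNA libraries were mapped with STAR to mRatBN7.2 and counted with featureCounts. The submitters' processing notes name STAR 2.7, featureCounts 1.6.4 and Rnor_6.0, so the sources disagree on the build, and no coordinates of the counts are given. How pairs, strand and multiply mapped reads were counted is not given in the sources used here. Counts from 1 to 20 were even in 70.5 to 71.2% of cases in the 4 libraries, and a fit on halved counts was run beside the counts as deposited.

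Here edgeR 4.0.16 in R 4.3.3 (limma 3.58.1) kept genes by filterByExpr, normalized the 4 libraries by TMM, and tested the groups by its robust quasi-likelihood method, with p-values adjusted over 13133 genes by Benjamini and Hochberg. Standard errors were the log2 fold change divided by the square root of the F statistic. Fold changes used a prior count of 0.125. Days were compared with each other as contrasts of 1 fit over the 10 libraries. As alternatives each library was left out, the replicate number served as a block, the 10 libraries were fitted jointly, the expression filter was dropped, RLE size factors replaced TMM, DESeq2 1.42.0 replaced edgeR, and the fold limit was lowered to 1 on the log2 scale.

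Symbols came from the study's list of called genes by Ensembl identifier, 770 of 817 identifiers having one. The gene lists and members were chosen with earlier results of these data known. The genes named were the 10 most changed DEGs per direction whose mean log2 CPM reached 3 and whose groups did not overlap, up to 4 DEGs per list and direction whose mean reached 1, genes the study measured by name, DEGs with 3 or fewer counts in every library of a group, and the highest member of each list that did not pass. Of these genes 1 is not reported here. Further list members are given with their values as examples inside their list's counts, chosen after their values were seen. The authors' own fold changes and p-values in that list were not used.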

Additional observations from a re-analysis of the deposited data

Results flagged for a closer look

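Only the 84 genes named by rule were searched. Among them, for 20 DEGs of HS3 the changes against Control at 2 times ran in opposite directions, each past an adjusted p of 0.01 in edgeR's joint fit of the 10 libraries, and the difference between the times itself passed. These are the genes whose difference went beyond 3 on the log2 scale, a limit set after the values were seen, and all of these comparisons share the HS3 libraries. The log2 differences of HS3 over HS1 among matrix genes were 4.43 for *Fbn2*, 4.41 for *Dpt*, 3.96 for *Cthrc1*, 3.28 for *Cilp*, 3.38 for *Adamts9*, 3.55 for *Aoc3* and 3.81 for *F13a1*. Among signals and receptors they were 5.27 for *Ramp3*, 4.78 for *Agtr1a*, 4.76 for *Dlk1*, 4.62 for *Nkd2*, 4.36 for *Npr3*, 3.92 for *Piezo2*, 3.81 for *Slit3*, 3.44 for *Kdr*, 3.38 for *Ptx3* and 3.15 for *Tril*. *Stac3*, of calcium release, differed by 3.03. *Celsr2* was lower in HS3, with a difference of -3.23. Over HS7 the differences were 5.55 for *Dlk1*, 5.25 for *Ramp3*, 4.56 for *Msx2* and 3.19 for *Aoc3*.

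The standard errors of the differences from HS1 ran from 0.11 for *Adamts9* to 0.59 for *Agtr1a*. *Ramp3* had standard errors of 0.36 against HS1 and 0.35 against HS7, and its Control libraries stood at 19.2 and 22.0 CPM and its HS14 libraries at 1.52 and 0.337 CPM. *Dlk1* stood at 0.899 and 0.674 CPM in HS14, so that both genes were lower at that time than in every Control and HS3 library.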

How the results depend on the processing

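The 102 upregulated and 46 downregulated DEGs stayed within 1.5 times under every alternative fit, and with a log2 fold change beyond 1 they were 268 and 107. Leaving out 1 library gave 99 to 115 upregulated and 43 to 60 downregulated DEGs. By adjusted p alone, 648 to 1728 genes were higher and 360 to 1438 lower when 1 library was left out. Upward calls were 1445 without HS3 replicate 1 and 1728 without HS3 replicate 2. Downward calls were 372 and 360 without Control replicate 1 and 2, 1153 and 1438 without HS3 replicate 1 and 2, and 960 with no filter. A lone library is then assumed to vary like the other group. With the replicate block, downward calls were 1019, upregulated DEGs 111 and downregulated DEGs 53. The correlation of same-numbered deviations was 0.106 for Control and HS3 and -0.021 to 0.106 over all pairs of groups, and no label ties libraries of the same number, so the numbers were not taken as pairs. Leaving out libraries of the day comparisons was chosen after seeing the data, and the list members lower in HS3 than in HS7 were then 65 to 129, with 65 without either HS3 library. Of the values of single genes against Control, 880 kept their direction and side of the threshold, 20 passed only in the alternative, 13 no longer passed and 6 changed sign. The sign changes were all with 1 library left out, and the ranges then were as follows. Against Control they were *Fgf7* -0.0713 to 0.0044, *Heyl* -0.0272 to 0.0924 (also -0.0216), *Kcnj12* -0.1561 to 0.2332 (also -0.1084) and *Tgfb2* -0.1857 to 0.2216. Against HS1 they were *Krt7* -0.1604 to 0.1846 (also -0.0183), *Notch1* -0.1858 to 0.4918 (also -0.1182) and *Tgfb2* -0.1195 to 0.2817. Against HS7 they were *Cilp* -0.0024 to 0.5656, *Cox8b* -1.1718 to 0.1479, *Eef1a2* -0.5720 to 0.4226 (also 0.0114), *Gja5* -0.3316 to 0.5193 (also -0.0397), *Mb* -0.7955 to 0.3448, *Mmp9* -0.5321 to 0.1257, *Mustn1* -0.4768 to 0.2667, *Stac3* -0.8640 to 0.0262 and *Trim54* -1.2198 to 0.1764. Against HS7, *Cox8b*, *Eef1a2*, *Mb*, *Mmp9*, *Mustn1*, *Stac3* and *Trim54* changed sign without the same library, HS7 replicate 1. The cause of the sign changes was not tested. Genes under about 3 counts, such as *Kcnk3*, are limited by depth.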
